A study of Mus musculus with 9 samples.

Results

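The genes described here are the matrix metalloproteinases (MMPs), their tissue inhibitors (TIMPs), the ADAMTS proteases with the related ADAMTS-like proteins, and the lysyl oxidases, measured in whole mouse liver. They were chosen by gene symbol, and 56 of the 55401 genes in the count table carried such a symbol. They comprise 23 MMPs, 4 TIMPs, 19 ADAMTS proteases, 5 ADAMTS-like proteins and 5 lysyl oxidases. RNA sequencing covered 9 livers of female mice that were obtained at 6 weeks of age. The 3 healthy livers came from wild-type mice that received neither oncogenes nor virus. The 3 untreated HCC livers came from mice whose hepatocytes were transfected through a hydrodynamic tail vein injection with sleeping beauty transposon plasmids for RAS and AKT, followed after 1 week by a blank AAV8 vector, a liver-directed virus. The 3 miR-22-treated HCC livers received the same oncogenes and AAV8 carrying miR-22. Both HCC groups were collected 5 weeks after the oncogenes, which is 4 weeks after AAV8. The strain is FVB/N in the protocols and C57BL/6 in a sample field, and the plasmid list of the protocol also holds a β-catenin plasmid that the study used in another model. Oncogene injection, AAV8 and tumor cannot be told apart in the comparison of HCC with healthy livers.

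MMPs are zinc proteases that cut collagens, elastin, basement membrane and cell surface proteins, and TIMPs block them by binding the active site. ADAMTS proteases cut proteoglycans such as versican, trim procollagens or, in the case of ADAMTS13, cut von Willebrand factor. Lysyl oxidases do the opposite work, since they crosslink collagen and elastin and so stiffen the matrix. In the liver, stellate cells, endothelial cells, macrophages and tumor cells can each make some of these proteins, and Adamts13 is known as a product of stellate cells.

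The libraries held 16664659 to 23908392 counts, and gene counts do not separate strands. Scaling factors differed by group, between 0.865 and 0.872 in healthy livers, 1.12 and 1.22 in untreated HCC, and 0.942 and 1.03 in miR-22-treated HCC. Values below are normalized counts, meaning counts scaled to a common library size, and they are listed in the order of the replicate numbers, which run from 1 to 3 in healthy livers and from 2 to 4 in both HCC groups. A gene was called at a Benjamini-Hochberg adjusted p under 0.05 with a fold change over 1.5 in the quasi-likelihood test of edgeR. Of the 56 genes, 40 passed the filter on low counts and were tested. In whole tissue, fewer cells of a type and less RNA per cell cannot be told apart. Nothing in the labels ties the livers of a group to separate experiments, so the p-values measure the spread between these livers.

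Most of the tested matrix genes were higher in untreated HCC than in healthy livers. Of 40 tested, 30 were called higher and 2 were called lower, while 22.7% of all tested genes were called higher and 18.1% lower. Their median log2 fold change was 1.96, against 0.01 over all genes tested. Since the filter keeps genes that are high in any group, a gene silent in healthy livers enters only if it is high elsewhere. Among the 25 members with at least 10 counts in every library, the median was 1.09. With miR-22, 10 of the 40 were called lower than in untreated HCC and 1 was called higher, with backgrounds of 5.47% lower and 8.32% higher. The median log2 fold change was -0.36, against 0.00 over all genes tested. Against healthy livers, 25 of the 40 were still called higher in miR-22-treated HCC, with a background of 16.9%. By contrast, 0 were called lower in edgeR and 0 in DESeq2, where the background in edgeR was 7.05% and 3 members had an unadjusted p under 0.05. These comparisons share samples, so their values are given side by side.

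**Figure D1:**
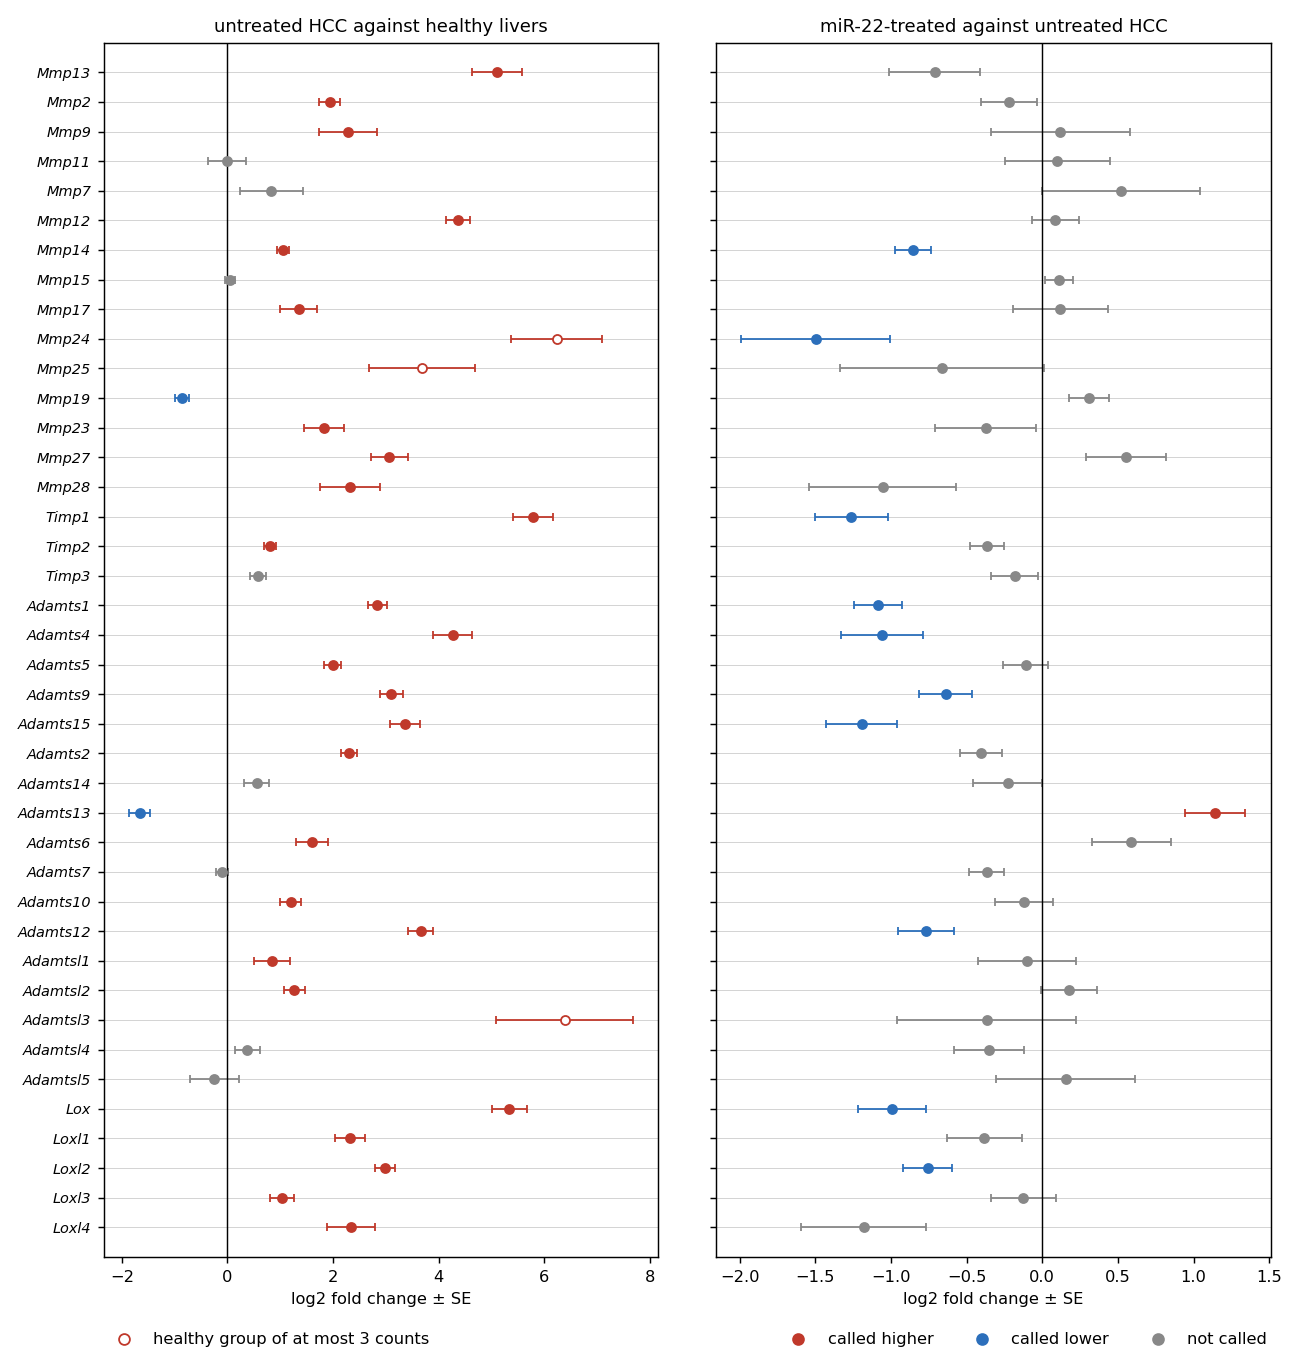
Log2 fold change (x axis, points) with its standard error (bars) of the 40 tested genes (y axis), for untreated HCC against healthy livers on the left and miR-22-treated against untreated HCC on the right, with separate x scales. Red marks the 30 and 1 genes called higher, blue the 2 and 10 called lower and grey the rest, and open points are genes whose healthy livers held at most 3 counts together, where the fitted value depends on the prior count.

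Timp1, the inducible secreted inhibitor of MMPs, had the largest change among the TIMPs. Its normalized counts were 2.44, 2.44 and 3.20 in healthy livers, 160.0, 185 and 126 in untreated HCC, and 47.7, 59.4 and 87.7 in miR-22-treated HCC. The 3 groups did not overlap, and miR-22-treated HCC lay between the others. Timp1 was 55.3-fold higher in untreated HCC (log2 fold change 5.79, SE 0.38, adjusted p = 1.38e-07) and 2.40-fold lower with miR-22 (log2 fold change -1.26, SE 0.24, adjusted p = 0.00328). It remained 23.1-fold above healthy livers after treatment (adjusted p = 4.83e-06).

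The Timp1 gene lies at chrX:20736316-20740976 on the plus strand of GRCm39. Promoters are shown for the 5 genes with the lowest p with miR-22 among those called in opposite directions in the comparisons of untreated HCC with healthy livers and of treated with untreated HCC, which share the untreated livers. These are Mmp14, Adamts1, Adamts13, Timp1 and Adamts15, the last of which is named only. The RefSeq window of Timp1 spans 250 bases before the start site and 50 bases from it on, at chrX:20869916-20870215 on the plus strand of GRCm38.p6. Capitals mark the letters ACGTG, read on either strand, a form of the core that hypoxia-inducible factor (HIF) binds. The other form, which begins with G, was not searched and is not marked.
Timp1: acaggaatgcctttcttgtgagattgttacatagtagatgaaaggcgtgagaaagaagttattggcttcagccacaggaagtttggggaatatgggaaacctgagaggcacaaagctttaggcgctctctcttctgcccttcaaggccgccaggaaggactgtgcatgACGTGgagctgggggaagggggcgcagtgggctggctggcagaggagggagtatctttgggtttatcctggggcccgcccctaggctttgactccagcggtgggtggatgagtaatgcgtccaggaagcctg
These letters, ACGTG on either strand, stood in the windows of 21.8% of 27025 genes and in those of 8 of 37 matrix genes with a window, or 21.6%. A match of 5 bases is a description of the letters and says nothing of binding.

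Timp2, a constitutive inhibitor that also helps MMP14 to activate MMP2, changed less. It read 499, 617 and 645 in healthy livers, 1114, 1049 and 909.5 in untreated HCC, and 834, 735 and 814 with miR-22. The groups again did not overlap. It was 1.74-fold higher in untreated HCC (adjusted p = 6.68e-05), and its 1.29-fold lower level with miR-22 (adjusted p = 0.0335) was under the fold threshold.
Timp3, the inhibitor that binds to the matrix, averaged 333 ± 73.6 (SD, n = 3) in healthy livers, 498 ± 73.2 in untreated HCC and 439 ± 36.0 with miR-22. Its 1.49-fold difference in untreated HCC (adjusted p = 0.00756) missed the fold threshold narrowly. It was called with upper-quartile scaling, among other settings. Timp4 held at most 7 counts in a library and was not tested. Per kilobase of exon, Timp2 led the family in every group, with 75.7% of the summed TIMP level in healthy livers and 61.8% in untreated HCC. The share of Timp1 was 0.792% in healthy livers, 21.6% in untreated HCC and 12.5% with miR-22.

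Among the MMPs, 11 of 15 tested were called higher and 1 lower in untreated HCC, against 22.7% and 18.1% of all genes. With miR-22, 2 of 15 were called lower, Mmp14 and Mmp24, against 5.47% of all genes, and 0 were called higher in edgeR, where 1 had an unadjusted p under 0.05. DESeq2 also called 0 higher, but gave no adjusted p for 3 of the 15. Mmp14, the membrane-type protease that cuts collagen at the cell surface and activates pro-MMP2, read 1423, 1309 and 1385 in healthy livers. It read 2962, 2862 and 2692 in untreated HCC and 1902, 1330.0 and 1478 in miR-22-treated HCC. The untreated livers stood above all others, while healthy and miR-22-treated livers overlapped. Mmp14 was 2.07-fold higher in untreated HCC (log2 fold change 1.05, SE 0.12, adjusted p = 9.66e-06) and 1.81-fold lower with miR-22 (log2 fold change -0.85, SE 0.12, adjusted p = 0.000562). Its log2 difference between miR-22-treated HCC and healthy livers was 0.19, with a 95% interval of -0.06 to 0.45 (adjusted p = 0.224).

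Mmp14 lies at chr14:54668878-54682821 on the plus strand of GRCm39. Its RefSeq promoter window, chr14:54431348-54431647 on the plus strand of GRCm38.p6, is shown with ACGTG in capitals, here on the opposite strand.
Mmp14: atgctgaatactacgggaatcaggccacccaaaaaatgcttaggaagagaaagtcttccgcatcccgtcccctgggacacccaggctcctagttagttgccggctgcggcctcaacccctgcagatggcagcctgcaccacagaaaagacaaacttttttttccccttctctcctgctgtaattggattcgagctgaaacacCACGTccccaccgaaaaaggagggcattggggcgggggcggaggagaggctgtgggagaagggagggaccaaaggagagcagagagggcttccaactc

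Mmp24, a membrane-type MMP known best from neurons, was almost silent in healthy livers at 1 count in total. It read 50.0, 26.1 and 39.9 in untreated HCC and 4.44, 19.8 and 16.6 with miR-22, and the groups did not overlap. The ratio of untreated HCC to healthy livers was 99.3, with an exact 95% interval of 17.5 to 3951 that covers counting error only. With miR-22 it was 2.82-fold lower (adjusted p = 0.0428), a call that was lost when any of the 6 HCC livers was left out, with adjusted p between 0.0574 and 0.163. Of the other membrane-type genes, Mmp15 differed little, at 904 ± 32.2, 934 ± 68.5 and 1007 ± 86.6 in healthy, untreated and miR-22-treated livers (n = 3 each). Mmp17 was 2.55-fold higher in untreated HCC (adjusted p = 0.0057). Mmp25, the membrane-type MMP of neutrophils, held 2 counts in healthy livers and read 10.9, 9.56 and 13.8 in untreated HCC, a ratio of 14.9 with an exact interval of 3.88 to 127.

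Mmp12, Mmp13 and Mmp27 had large increases in untreated HCC and were not called with miR-22. Mmp12, the elastase of macrophages, read 8.54, 9.78 and 9.59 in healthy livers, 179, 201 and 204 in untreated HCC, and 239.7, 203 and 178 with miR-22. The HCC groups overlapped, and both lay far above healthy livers. Mmp12 was 20.6-fold higher in untreated HCC (log2 fold change 4.37, SE 0.22, adjusted p = 2.18e-08), and the log2 difference between the HCC groups was 0.09 with a 95% interval of -0.25 to 0.42 (adjusted p = 0.725).
Mmp13, the main interstitial collagenase of rodents, read 1.22, 2.44 and 1.07 in healthy livers, 50.0, 78.2 and 44.9 in untreated HCC, and 32.2, 32.2 and 40.6 with miR-22. It was 34.4-fold higher in untreated HCC (adjusted p = 1.94e-06). The HCC groups did not overlap, but the 1.64-fold lower level with miR-22 (log2 difference -0.71, 95% interval -1.36 to -0.06) was not called (adjusted p = 0.107). It was called with scaling by library totals alone (adjusted p = 0.0349). Mmp27, a less studied MMP, was 8.38-fold higher in untreated HCC (adjusted p = 1.01e-05) and averaged 75.5 ± 18.7 there, against 112 ± 34.9 with miR-22 (log2 difference 0.55, 95% interval -0.02 to 1.12, adjusted p = 0.149).

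The gelatinases cut denatured collagen and type IV collagen of the basement membrane. Mmp2, the constitutive gelatinase of mesenchymal cells, read 46.3, 72.1 and 57.6 in healthy livers, 253, 250.2 and 171 in untreated HCC, and 199.7, 178 and 198 with miR-22. It was 3.82-fold higher in untreated HCC (adjusted p = 5.68e-06), and the HCC groups overlapped (adjusted p = 0.428). Mmp9, the inducible gelatinase of neutrophils and macrophages, read 9.76, 4.89 and 14.9 in healthy livers, 39.1, 57.3 and 50.7 in untreated HCC, and 102, 30.9 and 27.7 with miR-22. The liver labelled replicate 2 of the treated group was high and the other two were below every untreated liver. Mmp9 was 4.86-fold higher in untreated HCC (adjusted p = 0.00358). Its log2 difference with miR-22 was 0.12 (adjusted p = 0.88) and became -0.75 without that liver (adjusted p = 0.209). In the same liver, pancreatic acinar genes summed to 443 CPM, against 19.6 to 44.8 in the other livers, with Amy2a5 at 0. Neutrophil genes summed to 26.7 there, against 17.9 to 23.1 in the other HCC livers, and Mmp25 was also highest there, at 15.5 against 2.47 and 3.69. The part of these values in the Mmp9 level was not tested.

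Mmp19, a protease of basement membrane proteins, moved the other way. It read 2017, 2376 and 2528 in healthy livers, 1425, 1143 and 1249 in untreated HCC, and 1818, 1634 and 1281 with miR-22. Every HCC liver was below every healthy liver, and the HCC groups overlapped. Mmp19 was 1.81-fold lower in untreated HCC (adjusted p = 0.00014), a call that was lost with scaling by library totals alone (log2 fold change -0.44). The 1.24-fold higher level with miR-22 was not called (adjusted p = 0.116). Of the remaining tested MMPs, Mmp23 and Mmp28 were called higher in untreated HCC, at 3.55-fold and 5.00-fold, and Mmp7 and Mmp11 were not called in any of the comparisons.

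**Figure D2:**
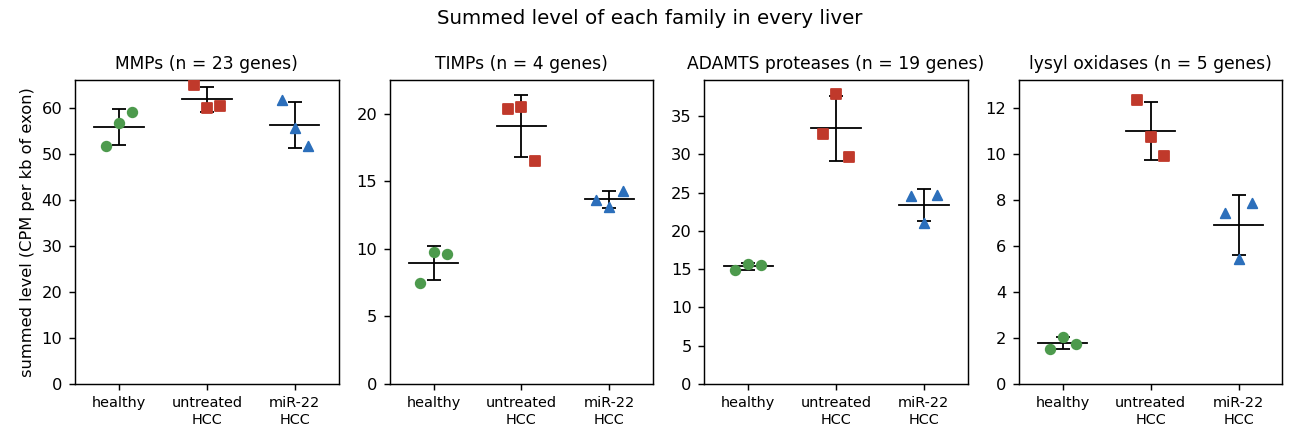
Summed level per kilobase of exon (y axis, CPM per kb, linear from 0) of each family in the 9 livers, with the group mean (long bar) and SD (capped line). The MMP sums of healthy and miR-22-treated livers overlapped, and every untreated HCC liver exceeded every other liver for TIMPs, ADAMTS proteases and lysyl oxidases.

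Summed over the family, the MMP level per kilobase of exon was 51.7 to 59.3 CPM per kb in healthy livers, where CPM are counts scaled by library size. It was 60.1 to 65.1 in untreated HCC and 51.8 to 61.7 with miR-22. The untreated livers lay just above the healthy livers, and the treated livers overlapped both groups. The makeup of the sum differed. Per kilobase, Mmp19 made up 60.0% of the MMP level in healthy livers, 29.9% in untreated HCC and 40.7% with miR-22. Mmp14 made up 20.5%, 38.3% and 23.3%, and so was the leading MMP in untreated HCC alone. Mmp12 and Mmp13, the genes with large fold changes, reached 1.39 and 1.11 CPM per kb in untreated HCC, far below the 23.7 of Mmp14.

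A shared feature of many MMP genes is their position. In all, 10 MMPs lie side by side on chromosome 9, with RefSeq start windows between 7272264 and 7692390 of GRCm38.p6. AP-1, a dimer of FOS and JUN proteins, is known to bind the letters TGANTCA. This motif, searched on both strands, stood in the windows of 8 of these 10 genes, always 35 to 95 bases before the start site. It stood in 8.97% of the windows of all 27025 genes and in 21.6% of those of the 37 matrix genes, and every one of the 8 matrix genes that held it lies in this cluster. The motifs are shown in capitals because their place is so similar, with the bases on either side, a choice made after the positions were seen.
Mmp13 (chr9:7272462-7272502, plus strand): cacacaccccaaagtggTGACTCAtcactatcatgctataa
Mmp12 (chr9:7347313-7347353, plus strand, second of 2 windows): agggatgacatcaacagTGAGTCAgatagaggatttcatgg
Mmp3 (chr9:7445759-7445799, plus strand): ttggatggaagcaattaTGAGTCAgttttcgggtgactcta
Mmp10 (chr9:7502262-7502302, plus strand): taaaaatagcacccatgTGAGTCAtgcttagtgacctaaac
Mmp7 (chr9:7692010-7692050, plus strand, first of 2 windows): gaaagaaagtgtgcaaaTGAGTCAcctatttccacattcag
Mmp1a (chr9:7464051-7464091, plus strand): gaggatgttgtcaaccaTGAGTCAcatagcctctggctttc
Mmp1b (chr9:7388096-7388136, minus strand): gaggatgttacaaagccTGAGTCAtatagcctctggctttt
Mmp20 (chr9:7628119-7628159, plus strand): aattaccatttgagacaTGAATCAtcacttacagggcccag
The genes with the motif ranged from called to silent. Mmp12 and Mmp13 were among the strongest increases in untreated HCC, and Mmp7 was tested but not called. Mmp3 and Mmp10 held at most 5 and 4 counts, with 0 in each healthy liver, and Mmp1a, Mmp1b and Mmp20 had 0 counts in all 9 libraries. Mmp27 and Mmp8, without the motif in this window, were called higher and untested, respectively. Of the genes called lower with miR-22, 6 have a window, and 0 of these held TGANTCA. The share over all genes was 8.97%, so 0 of 6 says little. Other forms of the AP-1 site were not searched, here or in the other windows.

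**Figure D3:**
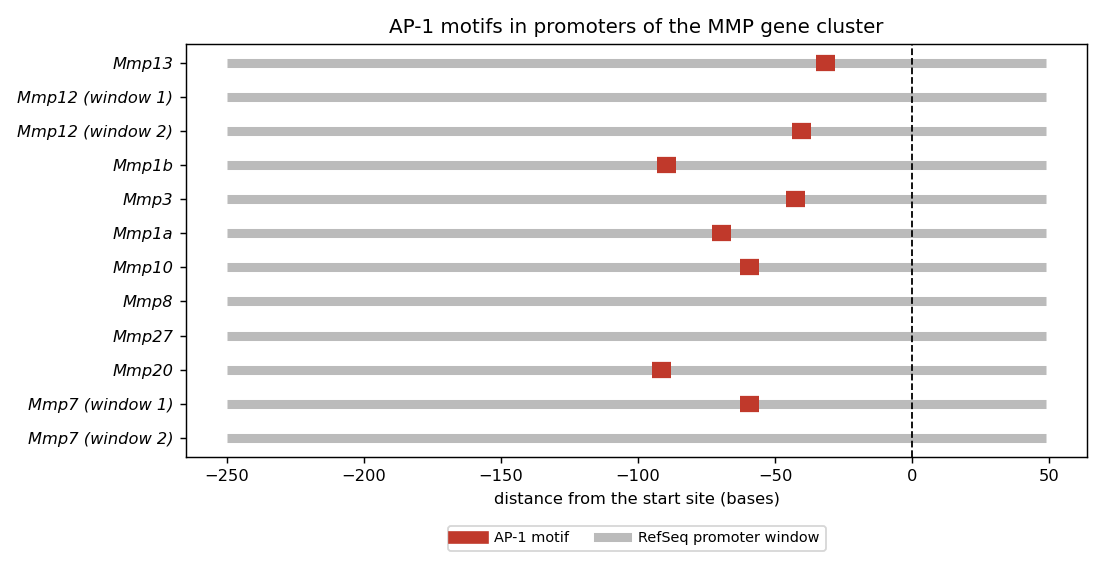
Positions of the AP-1 motif (red) in the RefSeq promoter windows (grey) of the 10 MMP genes clustered on chromosome 9, in bases from the start site (x axis, dashed line at 0), with the genes (y axis) in chromosome order. In 8 genes the motif begins 35 to 95 bases before the start site, and Mmp12 and Mmp7 have 2 windows each.

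The ADAMTS proteoglycanases cut versican, aggrecan and related proteoglycans. All 5 of them that were tested were called higher in untreated HCC, and 4 of the 5 were called lower with miR-22, against 22.7% and 5.47% of all genes. Adamts1, the most abundant, read 233, 247 and 259 in healthy livers, 1731, 2195 and 1376 in untreated HCC, and 740.1, 739 and 1014 with miR-22. The groups did not overlap, with treated livers in between. Adamts1 was 7.16-fold higher in untreated HCC (log2 fold change 2.84, SE 0.18, adjusted p = 9.02e-08) and 2.12-fold lower with miR-22 (log2 fold change -1.09, SE 0.16, adjusted p = 0.000834), and it stayed 3.38-fold above healthy livers (adjusted p = 1.09e-05).

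Adamts4 read 6.10, 6.11 and 8.53 in healthy livers, 159, 151 and 99.3 in untreated HCC, and 76.6, 40.8 and 77.5 with miR-22. It was 19.2-fold higher in untreated HCC (adjusted p = 9.93e-07) and 2.08-fold lower with miR-22 (adjusted p = 0.0142), the latter call being lost without untreated replicate 2 (adjusted p = 0.0664), untreated replicate 3 (0.0612) or miR-22 replicate 3 (0.0578). Adamts15 read 14.6, 12.2 and 12.8 in healthy livers, 175, 121 and 117 in untreated HCC, and 67.7, 44.5 and 66.4 with miR-22, again without overlap. It was 10.3-fold higher in untreated HCC (adjusted p = 9.52e-07) and 2.29-fold lower with miR-22 (adjusted p = 0.00369).
Adamts9, another versican protease, read 52.4, 37.9 and 39.4 in healthy livers, 326, 461 and 330.5 in untreated HCC, and 272, 192 and 253 with miR-22. Its 8.61-fold increase (adjusted p = 1.62e-07) was larger than its 1.56-fold decrease with miR-22 (adjusted p = 0.0204), which was lost without untreated replicate 3 (adjusted p = 0.114) or miR-22 replicate 3 (0.093).
Adamts5, the chief aggrecanase of mouse cartilage, differed from these. It averaged 89.5 ± 12.2 in healthy livers, 357 ± 38.2 in untreated HCC and 330.1 ± 57.0 with miR-22 (n = 3 each). It was 3.98-fold higher in untreated HCC (adjusted p = 7.46e-07), and the log2 difference with miR-22 was -0.11, with a 95% interval of -0.43 to 0.21 (adjusted p = 0.636).

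The letters that miR-22-3p pairs with were searched in the tested genes, since miR-22 was what the treatment delivered. The mature mouse sequence lies at chr11:75463772-75463793 on the plus strand of GRCm38.p6 and is shown with its seed, bases 2 to 8, in capitals.
miR-22-3p: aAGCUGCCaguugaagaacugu
The reverse complement of the seed, GGCAGCT, stood in the 3′ untranslated region of 11 of the 40 tested matrix genes, or 27.5%, and in 16.9% of 13559 tested genes with such a region. The matrix genes had longer regions, with a median of 1784 bases against 1339, so the shares are not directly comparable. Of the 10 genes called lower with miR-22, 4 held the match. Their stretches are shown, with the match in capitals, from the main GENCODE transcript in GRCm39.
Adamts1 (chr16:85591373-85591402, minus strand): tagcaggtccactcctGGCAGCTggtccaa
Adamts15 (chr9:30812243-30812272, minus strand): gtcagccttctactctGGCAGCTcctgctg
Adamts4 (chr1:171087498-171087527, plus strand): taggtgctcaaggaatGGCAGCTgctgctc
Mmp24 (chr2:155658019-155658048, plus strand): tcaccagggtctgaggGGCAGCTctagcca
The match was not found in the regions of Timp1, Lox, Loxl2, Mmp14, Adamts9 or Adamts12, which were also called lower. It stood in 7 of the 30 tested genes that were not called lower, among them Timp2, Mmp9, Mmp11, Mmp17, Loxl1 and Loxl4. The regions had a median of 2117 bases in the 10 genes called lower and 1708 in the 30 others. A match is a description of the letters, and its part in any level was not tested.

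The Adamts1 promoter is shown by the same rule as that of Timp1. Adamts1 lies at chr16:85590579-85600009 on the minus strand of GRCm39, and its RefSeq window is chr16:85803064-85803363, minus strand, of GRCm38.p6. Neither the AP-1 letters TGANTCA nor ACGTG stood in these 300 bases.
Adamts1: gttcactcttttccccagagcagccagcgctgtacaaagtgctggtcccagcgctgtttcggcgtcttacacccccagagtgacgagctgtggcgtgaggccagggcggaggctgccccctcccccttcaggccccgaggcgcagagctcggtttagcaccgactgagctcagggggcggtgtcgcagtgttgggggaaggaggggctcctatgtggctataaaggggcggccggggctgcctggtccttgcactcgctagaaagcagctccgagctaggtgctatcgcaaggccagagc

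**Figure D4:**
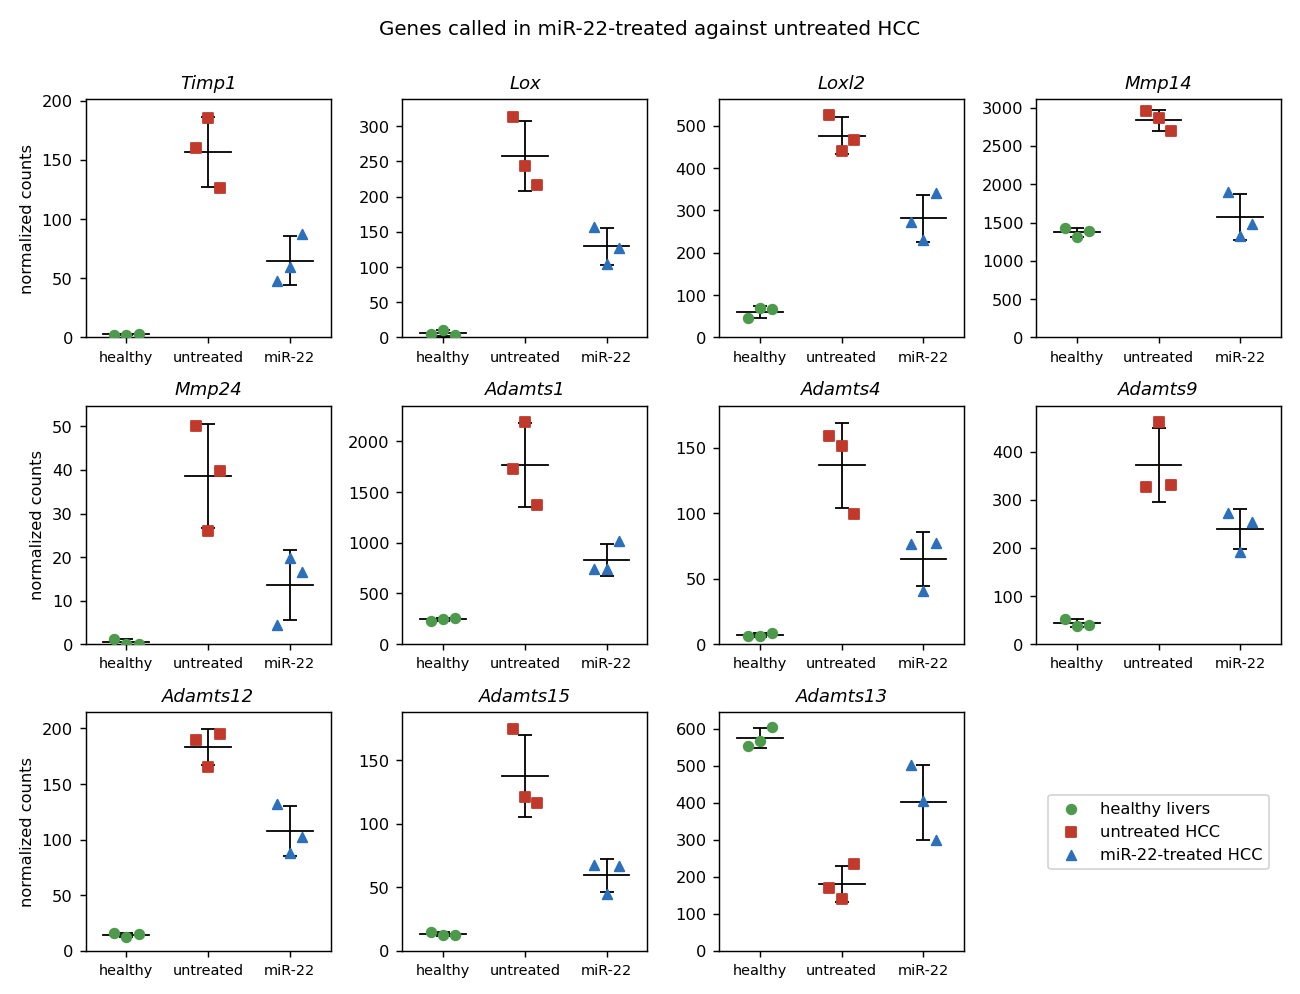
Normalized counts (y axes, linear from 0) of the 11 genes called in miR-22-treated against untreated HCC, in each of the 3 livers of each group, with the group mean (long bar) and SD (capped line). In the 10 genes called lower, every treated liver was below every untreated liver, and Adamts13 showed the reverse order. The genes were picked by a call on the same livers, so this order is no added evidence.

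Adamts13 was the single matrix gene called higher with miR-22. It encodes the protease that cuts von Willebrand factor multimers and so limits platelet adhesion. It read 552, 566 and 605 in healthy livers, 168, 139 and 234 in untreated HCC, and 500.4, 403 and 299 with miR-22. No group overlapped another, and the treated livers were spread widely between the other groups. Adamts13 was 3.17-fold lower in untreated HCC (log2 fold change -1.66, SE 0.20, adjusted p = 1.59e-05) and 2.21-fold higher with miR-22 (log2 fold change 1.14, SE 0.20, adjusted p = 0.0019). Against healthy livers, the treated level was 1.44-fold lower and not called (adjusted p = 0.0509). It was called lower without treated replicate 2 (log2 fold change -0.73, adjusted p = 0.0148), the liver with the high pancreatic acinar sum given above. Its target Vwf, from the list of substrates, was not called in either comparison, with log2 fold changes of -0.07 and 0.11.
Of 8 stellate cell and myofibroblast markers, 3 were called higher and 2 lower in untreated HCC, and 2 higher with miR-22, where the shares of all tested genes were 22.7%, 18.1% and 8.32%. The 2 that were called lower and then higher were Lrat, the enzyme that esterifies retinol for storage, and Hand2, a transcription factor. Lrat averaged 817 in healthy livers, 291 in untreated HCC and 623 with miR-22, with overlap between the HCC groups, and Hand2 averaged 125, 64.2 and 129, without such overlap. The 3 called higher in untreated HCC were Pdgfrb, Acta2 and Tagln, whose log2 fold changes were 1.41, 2.77 and 1.94. Their values between treated and untreated HCC were -0.43, -0.57 and -0.26, none called. For Acta2 the adjusted p was 0.0487, and the 1.49-fold lower level was under the fold threshold. Colec11 had log2 fold changes of -0.46 (adjusted p = 0.00447) and 0.46 (adjusted p = 0.0129), both under the fold threshold. Reln had 0.25 and -0.34 and Des -0.29 and 0.53, none called. The part of stellate cells in the Adamts13 level was not tested.
Adamts13 lies at chr2:26863428-26899640 on the plus strand of GRCm39, and its RefSeq window, shown for the same reason as that of Adamts1, is chr2:26973166-26973465, plus strand, of GRCm38.p6. It held neither TGANTCA nor ACGTG.
Adamts13: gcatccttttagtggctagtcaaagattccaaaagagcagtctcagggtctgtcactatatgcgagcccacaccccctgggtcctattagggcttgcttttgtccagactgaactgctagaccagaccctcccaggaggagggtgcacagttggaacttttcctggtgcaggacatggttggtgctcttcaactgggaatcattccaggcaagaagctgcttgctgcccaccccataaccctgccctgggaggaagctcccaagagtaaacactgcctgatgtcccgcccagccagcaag

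Adamts12, a protease of cartilage oligomeric matrix protein, read 15.9, 12.2 and 14.9 in healthy livers, 190.0, 165 and 195 in untreated HCC, and 132, 87.8 and 102 with miR-22. The groups did not overlap. It was 12.7-fold higher in untreated HCC (adjusted p = 1.19e-07) and 1.70-fold lower with miR-22 (adjusted p = 0.0109), the latter lost without miR-22 replicate 3 (adjusted p = 0.0543). Adamts2, which removes the amino-terminal propeptide of fibrillar procollagens, averaged 92.1 ± 20.3 in healthy livers, 456 ± 53.0 in untreated HCC and 344 ± 13.8 with miR-22 (n = 3 each). It was 4.94-fold higher in untreated HCC (adjusted p = 1.82e-07), and its 1.32-fold lower level with miR-22 was not called (adjusted p = 0.0554).
Adamts6 and Adamts10 act on fibrillin microfibrils. Both were called higher in untreated HCC, at 3.03-fold and 2.29-fold, and neither was called with miR-22, where Adamts6 averaged 105 ± 9.67 against 70.0 ± 21.6. Adamts7 and Adamts14 were not called in any of the comparisons. Per kilobase, Adamts13 led the ADAMTS family in healthy livers with 39.1% of the summed level and held 5.65% in untreated HCC and 17.9% with miR-22. Adamts1 held 15.1%, 49.8% and 33.4% and led in both HCC groups.

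ADAMTS-like proteins lack a protease domain and bind to microfibrils. In untreated HCC, 3 of the 5 were called higher, against 22.7% of all genes, and with miR-22 edgeR called 0 of them, with 0 at an unadjusted p under 0.05. DESeq2 also called 0, but gave no adjusted p for 1 of the 5. Adamtsl2 averaged 129 ± 20.6 in healthy livers and 309 ± 21.0 in untreated HCC, a 2.40-fold difference (adjusted p = 0.000143). Adamtsl3 had 0 counts in the healthy livers and 4.55, 13.0 and 13.0 normalized counts in untreated HCC, which is at least 8.99-fold higher when healthy livers are set to 3 counts over the group. Adamtsl1 was called narrowly (1.80-fold, adjusted p = 0.0485). This call was lost without any of the 3 healthy livers or without untreated replicate 2 or 3, with adjusted p between 0.0597 and 0.173.

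All 5 lysyl oxidases were called higher in untreated HCC, and 4 of the 5 were also called higher than healthy livers after miR-22, against 22.7% and 16.9% of all genes. Lox itself, which crosslinks collagen and elastin, read 4.88, 11 and 3.20 in healthy livers, 314, 243 and 217 in untreated HCC, and 156, 104 and 127 with miR-22. The groups did not overlap. Lox was 40.5-fold higher in untreated HCC (log2 fold change 5.34, SE 0.33, adjusted p = 9.25e-08) and 1.99-fold lower with miR-22 (log2 fold change -0.99, SE 0.23, adjusted p = 0.00767). Without untreated replicate 2 the latter call was lost (adjusted p = 0.0522). The treated level was 20.4-fold above healthy livers (adjusted p = 1.91e-06).

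Loxl2, which crosslinks type IV collagen of basement membranes, read 45.1, 68.5 and 67.2 in healthy livers, 525, 440.4 and 465 in untreated HCC, and 272, 231 and 341 with miR-22. The order of the groups was that of Lox, without overlap. Loxl2 was 7.88-fold higher in untreated HCC (adjusted p = 9.37e-08) and 1.69-fold lower with miR-22 (adjusted p = 0.00561).
Loxl1, the oxidase of elastic fibers, read 29.3, 40.3 and 22.4 in healthy livers, 156, 166 and 135 in untreated HCC, and 99.9, 86.6 and 162 with miR-22. The HCC groups overlapped through treated replicate 4, and the difference with miR-22 was not called (log2 fold change -0.38, adjusted p = 0.293). Without that liver Loxl1 was called lower (log2 fold change -0.70, adjusted p = 0.0451). Loxl3 was 2.04-fold higher in untreated HCC (adjusted p = 0.00198) and averaged 114 ± 21.5 and 104 ± 25.9 in untreated and treated HCC (adjusted p = 0.721).
Loxl4, another basement membrane oxidase, read 7.32, 19.6 and 15.99 in healthy livers, 81.8, 71.2 and 66.7 in untreated HCC, and 57.7, 14.8 and 23.99 with miR-22. Treated replicate 2 was close to the untreated livers and the other two were within or near the healthy range. The 2.26-fold lower level with miR-22 was not called (adjusted p = 0.0562), and it was called by DESeq2 (adjusted p = 0.0312) and without treated replicate 2 (log2 fold change -1.89, adjusted p = 0.00738). Summed per kilobase, the lysyl oxidase level in CPM per kb was 1.53 to 2.05 for the healthy group, 9.94 to 12.4 for untreated HCC and 5.42 to 7.89 with miR-22. Loxl3 led in healthy livers with 34.8% of the sum, and Loxl2 led in untreated and treated HCC with 40.4% and 38.0%.

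**Figure D5:**
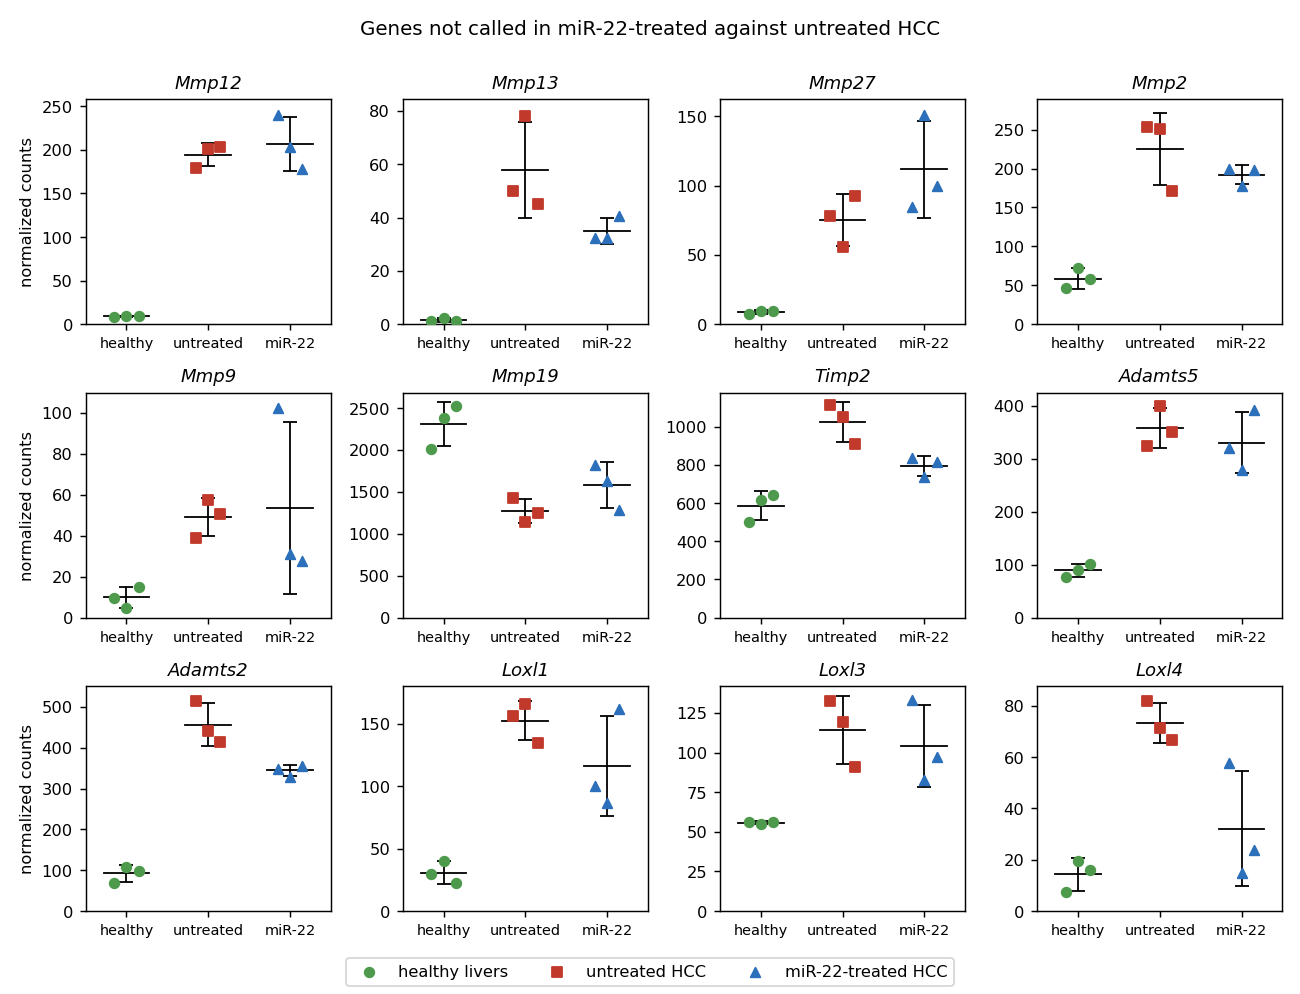
Normalized counts (y axes, linear from 0) of 12 genes not called in miR-22-treated against untreated HCC, in each of the 3 livers of each group, with the group mean (long bar) and SD (capped line). The HCC groups overlapped for Mmp12, Mmp27 and Adamts5, and single treated livers stood apart for Mmp9, Loxl1 and Loxl4.

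Of the 56 genes, 16 did not pass the filter and have no test. Mmp1a, Mmp1b, Mmp20 and Adamts18 had 0 counts in every library, which allows up to 3 counts in each. The highest count in any library was 18 for Adamts16, 12 for Mmp16 and Adamts8, 11 for Adamts17, 10 for Mmp8, 8 for Mmp21, 7 for Timp4 and Adamts3, 5 for Mmp3, 4 for Mmp10 and Adamts19, and 2 for Adamts20. Named after their values were seen, Adamts16 held 10, 8 and 18 counts in untreated HCC and 1, 0 and 2 with miR-22, and Mmp8 held 6, 10 and 3 against 0, 1 and 0 in healthy livers. Whether the silent genes differ between groups was not detectable at this depth.

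The pathway lists below are read against the shares of all tested genes, which were 22.7% higher and 18.1% lower in untreated HCC, and 8.32% higher and 5.47% lower with miR-22. The plasminogen system activates several pro-MMPs through plasmin. Of 8 tested genes, 5 were called higher and 2 lower in untreated HCC, and 4 were called lower and 1 higher with miR-22. Serpine2, a serine protease inhibitor, showed log2 fold changes of 3.44 in untreated HCC and -1.16 with miR-22, and the tissue activator Plat 4.36 and -0.93, each called. Plaur, the receptor of urokinase, showed 3.20 and -0.84. Plg, plasminogen itself and a product of hepatocytes, showed -1.25 and 0.76, both called.

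Other matrix proteases were called higher in untreated HCC in 10 of 15 cases, and with miR-22 all 15 were without a call, although 3 were lower and 1 higher at an unadjusted p under 0.05. Adam19, Adam15, Adam8 and Adam10, membrane proteases that shed surface proteins, had log2 fold changes of 2.04, 1.64, 3.12 and 0.78 in untreated HCC. Of 10 activators and other inhibitors, 2 were called higher and 2 lower in untreated HCC, and 1 was called lower with miR-22, each close to the share of all genes. At an unadjusted p under 0.05, 5 of the 10 were higher and 2 lower with miR-22. The gene called lower with miR-22 was A2m, the protease trap α2-macroglobulin, at 2 counts over the healthy livers, 552 ± 283 normalized counts in untreated HCC and 142 ± 19.6 with miR-22 (log2 fold change -1.95, adjusted p = 0.00169). The related and abundant Pzp fell in untreated HCC (log2 fold change -0.79, adjusted p = 0.00083). Bsg, an inducer of MMPs, was called higher (log2 fold change 0.99), and Pcsk6, a proprotein convertase, had a log2 fold change of -0.53 that was under the fold threshold.

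Collagen and elastic fibers are the substrates of lysyl oxidases. Of 15 collagen processing genes, 10 were called higher in untreated HCC and 1 lower with miR-22. At an unadjusted p under 0.05, 9 of the 15 were lower and 1 was higher with miR-22. The called gene was Plod2, which makes the hydroxylysine used in stable crosslinks, with log2 fold changes of 5.27 in untreated HCC and -1.37 with miR-22 (adjusted p = 0.00552). The collagen chaperone Serpinh1 showed 2.14 and -0.50, the latter not called (adjusted p = 0.0622). Colgalt1 and the procollagen enhancer Pcolce showed 0.69 and 1.31 in untreated HCC, both called.
Of 16 elastic fiber and microfibril genes, 11 were called higher in untreated HCC and 5 lower with miR-22. Fbn1, which encodes the main microfibril protein fibrillin-1, averaged 104 ± 20.6, 906 ± 105 and 507 ± 84.3 in healthy, untreated and treated livers (n = 3 each). Its log2 fold changes were 3.12 (adjusted p = 3.74e-08) and -0.83 (adjusted p = 0.00204). Ltbp3, which holds latent TGF-β in the matrix, rose in untreated HCC by 2.16 on the log2 scale and was called lower with miR-22 (adjusted p = 0.00263). For Fbln2, which encodes a fibulin, the log2 fold changes were 2.84 and -0.82, both called. Postn, a matricellular protein, showed 1.92 in untreated HCC and was not called with miR-22.
Among 8 tested ADAMTS substrates, 6 were called higher and 1 lower in untreated HCC, and 2 were called lower and 1 higher with miR-22. Vcan, the versican cut by ADAMTS proteoglycanases, averaged 4.68 ± 3.69, 151 ± 22.9 and 72.6 ± 28.9. Nid1, a basement membrane linker, showed log2 fold changes of 3.05 and -0.65, both called. Nid2 and Bgn were called higher in untreated HCC, at 1.54 and 1.05, and with miR-22 their log2 fold changes of -0.47 and -0.30 were under the fold threshold. Dcn, a small proteoglycan that binds collagen, went the other way, with -0.61 in untreated HCC and 0.71 with miR-22, both called.

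Marker genes of hepatocytes, neutrophils, endothelial cells and cholangiocytes had summed levels that differed between healthy livers and untreated HCC without overlap, as did the low sums of T and NK cell and mesothelial markers, while those of stellate cells, macrophages, B and plasma cells and pancreatic acinar cells overlapped. Their part in the matrix results was not tested. Hepatocyte markers, 8 genes led by Alb, had summed CPM of 129803 to 134550 in the healthy group, 50339 to 63996 in untreated HCC and 78869 to 97221 with miR-22. Stellate and myofibroblast markers had like sums, 211 to 255, 235 to 276 and 236 to 267, with the calls in both directions given beside Adamts13. Macrophage sums were 366 to 460, 358 to 414 and 428 to 454. Of 9 macrophage markers, 2 were called higher and 1 lower in untreated HCC, against 22.7% and 18.1% of all tested genes. With miR-22, 1 was called lower, against 5.47%. The marker Cx3cr1 was called higher in untreated HCC (log2 fold change 2.99) and lower with miR-22 (-1.34). Cd68 was called higher and Timd4 lower in untreated HCC. Neutrophil sums were 1.76 to 4.59, 18.1 to 23.1 and 17.9 to 26.7. T and NK cell sums were 5.27 to 6.92, 6.95 to 8.42 and 5.99 to 8.04, and mesothelial sums 4.94 to 5.22, 2.91 to 4.22 and 4.75 to 8.42. Endothelial sums were 366 to 457, 231 to 292 and 306 to 391. Cholangiocyte markers, mostly Spp1, which HCC cells also make, summed to 29.5 to 42.2, 3341 to 6262 and 1568 to 2715. Of these 7 markers, 6 were called higher in untreated HCC, against 22.7% of all tested genes. With miR-22, 4 were called lower, against 5.47%, namely Spp1, Sox9, Cftr and Epcam. Sox9 had log2 fold changes of 4.84 and -1.57, Cftr 7.53 and -1.79, and Epcam 3.63 and -0.96. None of the genes of these lists but the acinar Amy2a5 was at 0 in all libraries, and the neutrophil marker Ly6g held at most 2 counts.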

How the data were processed

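The authors quantified reads of a non-directional library kit with Salmon, imported them as gene counts and deposited these counts for 9 livers. The notes name GRCm39, FastQC 0.11.7 and DESeq2 1.18. A deposited normalized table was not used. Genes passing filterByExpr were tested in edgeR 4.0.16 (R 4.3.3) with TMM scaling and the quasi-likelihood test, all 3 groups in one fit, p adjusted over all 15717 genes tested. Calls needed adjusted p under 0.05 and a fold over 1.5. The standard error was the log2 fold change divided by the root of F, and log2 intervals (95%) used the total degrees of freedom of the fit. Where a group held 1 to 3 counts, a ratio with an exact 95% interval is given, and where it held 0, a bound from 3 counts over the group. The test was checked on simulated data.

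The members and lists were chosen with earlier results of these data known. Named were members called with miR-22, the 12 largest called changes in untreated HCC, all TIMPs and lysyl oxidases, Mmp2, Mmp9 and Mmp14, and the lowest p in each pathway list (1 such gene is not reported here). Others are named as counts or because a value stood apart. Exon lengths, positions and 3′ untranslated regions came from GENCODE vM39 (51731 of 55401 IDs matched), promoters and miR-22-3p from RefSeq, GRCm38.p6. The HIF letters ACGTG were added after the AP-1 search. Alternatives were other scalings, filters, DESeq2 1.42.0, a test against the fold threshold (glmTreat), a replicate block and leaving out each liver. Shared replicate numbers did not pair the livers: same-numbered untreated and treated livers correlated at -0.121, -0.131 and -0.235.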

Additional observations from a re-analysis of the deposited data

How the results depend on the processing

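No called matrix gene changed direction under any alternative run: of 1868 member results, 48 lost a call, 38 gained one and 1782 did neither. The 1782 include results without an adjusted p, as in DESeq2 for 4 members with miR-22. They also include uncalled genes whose direction changed. With at least 10 counts in every library, 25 members and 12836 genes in all were tested, fewer than before. Of the members, 18 were called higher in untreated HCC, 6 lower with miR-22 and 13 higher in treated than in healthy livers. Of the 12836 genes, 2575, 686 and 1756 were called in these ways. With glmTreat, 0 members were called higher and 1 lower with miR-22, against 1 and 10. Of all 15717 genes, glmTreat called 413 higher and 55 lower, against 1308 and 859. Scaling by library totals alone shifted the median of all genes by 0.42 in untreated HCC against healthy livers and by -0.24 with miR-22. It left 1 member lower in untreated HCC and gave 15 lower with miR-22. Among all 15717 genes, 1492 and 2164 were then called lower in these comparisons, against 2842 and 859 with TMM. The share of calls over all genes that were higher became 80.0%, 27.8% and 85.2%, against 55.7%, 60.4% and 70.6%. With adjusted p alone, 2 of 40 members were lower in treated than in healthy livers, against 0. The counts over all 15717 genes were 2373, against 1108. Leaving out one liver gave 6 to 10 members lower with miR-22 (6 without treated replicate 3). It gave 0 to 3 lower in treated than in healthy livers, namely 3 without treated replicate 2 and 1 without healthy replicate 1. Shares over all genes were not taken for the runs that left out a liver. With the replicate block, 28 members were higher and 2 lower in untreated HCC. The block gave 1 higher and 8 lower with miR-22, and 22 higher in treated than in healthy livers. For all 15717 genes, the counts were 3268 higher and 2595 lower in untreated HCC, and 1127 higher and 618 lower with miR-22. In treated against healthy livers, 2171 genes were higher. With 3 livers per group, the correlations of same-numbered livers cannot exclude a shared litter or batch. Why calls were lost with the block was not tested. Adamts1 kept its call with miR-22 in 16 of 16 alternatives, Mmp24 in 6 of 15. Depth limits the 16 untested members. The causes of these changes were not tested.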
